A study of Mus musculus with 2 samples.

Results

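Natural killer (NK) cells are described here in liver non-parenchymal cells (NPCs) profiled by scRNA-seq in normal and fibrotic mouse liver. The cells were chosen by raw UMI counts, the number of distinct transcript molecules read per gene and cell barcode. A member had at least 2 UMIs summed over the receptor genes Ncr1, Klrb1c, Klre1, Klra8 and Klra4, at least 1 UMI of Nkg7, none of Cd3d, Cd3e and Cd3g, at most 1 of Cd79a, and fewer than 25 UMIs of the endothelial genes Kdr, Ptprb and Flt4 per 10000. Only cells with over 200 genes and under 10% mitochondrial UMIs were kept. The rule selected 227 of 13603 kept cells, 124 of 7471 from normal liver and 103 of 6132 from fibrotic liver, out of 14567 cells in the deposited data. Since these genes chose the cells, their levels against other cells are a description, and the rule does not separate conventional NK cells from group 1 innate lymphoid cells (ILC1s).

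Both livers came from male C57BL/6 mice of 8 weeks of age, injected intraperitoneally 2 times a week for 6 weeks. The normal (quiescent) liver came from a mouse given the vehicle, olive oil, and the fibrotic liver from a mouse given carbon tetrachloride (CCl4), a hepatotoxin whose repeated dosing scars the liver. Livers were digested by a collagenase perfusion that both samples shared, most hepatocytes were spun out, and no antibody sort was used. Each condition was 1 library from 1 mouse, so the mouse, the day and the treatment cannot be told apart and no difference between conditions was tested. Bracketed ranges are exact 95% intervals, Poisson for levels, conditional binomial for ratios and Clopper-Pearson for shares, and cover counting error only, not the spread between cells or mice.

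NK cells are innate lymphocytes that kill stressed or infected cells through granules of perforin and granzymes and secrete interferon gamma and chemokines. Their activity is set by the balance of activating and inhibitory receptors, many of the Ly49 and NKG2 families, of which several activating ones signal through the adaptors DAP12 (Tyrobp) and DAP10 (Hcst). The liver sinusoids hold circulating conventional NK cells, which need the T-box factor Eomes and carry the integrin CD49b (Itga2), and resident ILC1s, which lack Eomes and carry CXCR6 and the integrin CD49a (Itga1).

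The libraries held 44062632 UMIs in 8130 cells in the normal liver and 53288463 UMIs in 6437 cells in the fibrotic liver. A total of 15 cell barcodes occurred in both libraries, none of them between NK cells. NK cells were shallow, with a median of 3390.5 UMIs per cell (1357 to 35471) in normal and 3205 (1230 to 47120) in fibrotic liver. Their mitochondrial share had a median of 6.34% in normal and 5.41% in fibrotic liver. The doublet caller Scrublet marked 3 cells in the normal library and 0 in the fibrotic one, too few to count as a working call, so doublets were instead looked for through markers of other lineages.

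Several members carried the RNA of another cell type. A member was called mixed when it held at least 20 UMIs of another lineage's marker list and over 5 times the members' median level of that list; this limit was set after seeing the data. In normal liver 12 of 124 members were mixed. They held 26.5% of the members' UMIs, and carried endothelial, cholangiocyte, B cell, plasmacytoid dendritic cell, hepatocyte or erythroid RNA. In fibrotic liver 7 of 103 were mixed and held 35.1% of the UMIs. Of these, 4 carried mesenchymal RNA and alone held 28.9%, and the others carried B cell or neutrophil RNA. The deepest fibrotic member, with 47120 UMIs, had 184 mesenchymal UMIs per 10000, against 12.4 (11.2-13.7) over the fibrotic members that were not mixed. The main results are therefore given for all members and, where the value moved, again without the mixed ones (112 normal, 96 fibrotic).

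**Figure D1:**
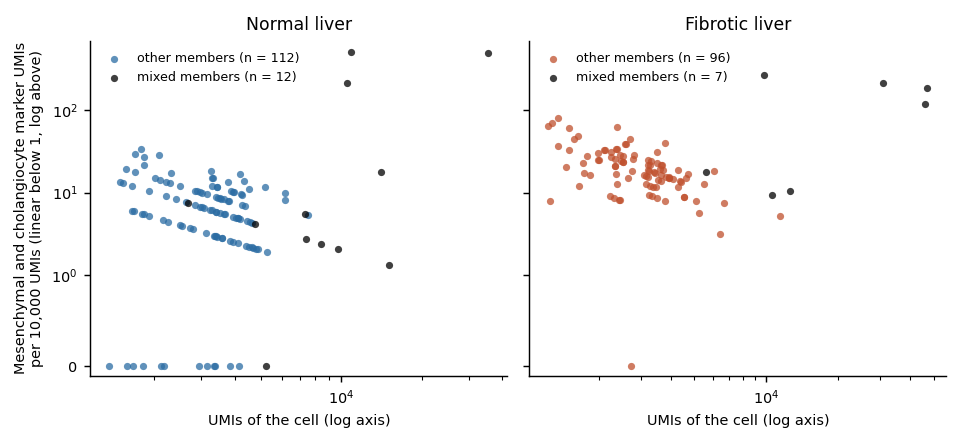
UMIs per cell (x axis, log scale) against the summed level of mesenchymal and cholangiocyte marker genes (y axis, UMIs per 10000 UMIs, linear below 1 and log above) for each NK cell of the normal and the fibrotic library. Black points are mixed members, which include the deepest cell of each library (35471 and 47120 UMIs); mixed members at low values of the y axis carried markers of other lineages.

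The members that were not mixed held RNA of other liver cells at levels near those of B cells of the same library, cells that should lack it too. Hepatocyte genes such as Alb and Apoa1 stood at 282 UMIs per 10000 in NK cells and 226 in B cells of normal liver, and at 21.7 and 22.8 in fibrotic liver. Kupffer cell genes stood at 7.79 and 6.12 in normal and at 30.6 and 37.7 in fibrotic liver, and mesenchymal genes at 0.658 and 0.676 in normal and at 12.4 and 14.3 in fibrotic liver. Levels of hepatocyte genes were thus lower, and of Kupffer and mesenchymal genes higher, in fibrotic NK cells and B cells alike, and none of these genes is read below as a property of NK cells. Markers of type 2 and 3 innate lymphoid cells summed to 0.0403 UMIs per 10000 in normal members, and basophil and mast cell markers had no UMI in the members of either library. In fibrotic members both lists were at 0 of 463566 UMIs, which allows up to 0.0647 per 10000.

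The identity of the cells was checked on genes that the rule did not use. Gzma, a granzyme, stood at 36.4 UMIs per 10000 in normal and 21.3 in fibrotic NK cells, and at 0.152 and 0.154 in B cells. Eomes stood at 2.56 and 1.04, with 0.00434 in normal B cells and no UMI in fibrotic B cells. CD8 T cells were closer, with Eomes at 0.654 in normal and 0.852 in fibrotic liver and Gzma at 9.74 and 1.53. The 20 genes highest in NK cells over all other kept cells, by the lower ratio of the 2 libraries, were Klri2 (67.2-fold), Prf1 (57.2-fold), Klrb1b (51.2-fold), Gzma (49.7-fold), Klra9, Klra7, Eomes, Klrb1f, Sytl3, Il18rap, Klrc2, Samd3, Ccl5, Klrk1, Xcl1, Klrc1, Il2rb, Klrd1, Txk and Ctsw (12.8-fold). Most are lectin-like receptors, granule proteins, chemokines or cytokine receptor chains of NK cells. Not all are particular to them. In CD8 T cells Ccl5 stood at 49.9 and 14.1, against 59.0 and 16.5 in NK cells, and Ctsw at 3.04 and 1.58, against 3.89 and 2.91. T cell genes were low but not absent. Trac had 4 UMIs in normal and 5 in fibrotic members and Cd5 had none, while Trbc1 stood at 4.28 and 4.88 UMIs per 10000.

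At the edges of the rule, 10 normal and 6 fibrotic members had exactly 2 receptor UMIs, with Gzma at 11.4 and 16.7 UMIs per 10000. Cells that passed all else with 1 receptor UMI numbered 12 and 21 and had Gzma at 1.82 and 5.86. Cells that passed all but the Nkg7 requirement numbered 21 and 39, with Gzma at 5.73 and 5.24. The CD3 limit kept out the most cells in normal liver: 213 normal and 54 fibrotic cells passed everything else but held a CD3 UMI, and their summed Trac, Trbc1 and Trbc2 level was 20.7 and 17.9 UMIs per 10000.

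NK cells made up 1.66% (1.38-1.98) of kept cells in normal and 1.68% (1.37-2.03) in fibrotic liver; with the mitochondrial limit at 5% the shares were 1.67% (1.14-2.37) and 2.82% (2.08-3.72), and with an endothelial limit of 10 they were 1.43% (1.18-1.73) and 1.08% (0.833-1.37). The order of the livers thus rests on these limits. Among the cells called NK, T or B they were 9.05% (7.58-10.7) of 1370 in normal and 14.6% (12-17.4) of 707 in fibrotic liver, and 19.7% and 43.2% with the 5% limit. T cells in that denominator numbered 729 in normal and 286 in fibrotic liver, and B cells 517 and 318. Digestion and centrifugation set how many of each type were recovered, and their part in these shares was not tested.

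Genes with at least 1 UMI per 10000 in NK cells of either library were compared, 2609 in all. Of these, 370 (14.2%) were at least 2 times higher and 221 (8.47%) at least 2 times lower in fibrotic liver. Without mixed members the counts were 350 (13.4%) and 237 (9.08%), with 287 and 195 genes in common with the first counts. The median gene with UMIs in both libraries was higher in fibrotic NK cells by 0.22 on the log2 scale (0.24 without mixed members), so ratios below are best read against a ratio of 1.17 (1.18), not 1.

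Most receptors were at like levels in the livers. Of 9 activating receptors compared, none was 2 times higher and 1, Klra8, was 2 times lower in fibrotic liver, against backgrounds of 14.2% and 8.47% of genes, and the median log2 ratio was -0.12. Klrk1, which encodes NKG2D, stood at 6.55 UMIs per 10000 in normal and 5.29 in fibrotic NK cells, and Klrb1c, which encodes NK1.1, at 5.34 and 5.59. Ncr1, which encodes NKp46, stood at 4.78 and 2.74, a ratio of 0.57 (0.46-0.71), and 0.64 (0.51-0.81) without mixed members. Klra4 and Klra8, the activating Ly49D and Ly49H that signal through DAP12, were lower in fibrotic liver, though with the 5% mitochondrial limit the Klra8 ratio turned to 1.33. Klra4 went from 5.43 to 2.80 UMIs per 10000, a ratio of 0.52 (0.42-0.64), and Klra8 from 5.77 to 2.63, a ratio of 0.46 (0.37-0.57). The share of members with a Klra8 UMI was 52.4% in normal and 37.9% in fibrotic liver. Ncr1, Klrb1c, Klre1, Klra4 and Klra8 were used to choose the cells in each library. The last 500 bases of Klra4 and Klra8 shared no stretch of 91 bases with another gene's transcript, whereas Klra3, Klra7 and Klra9 shared 8.05%, 9.76% and 13.7% of such stretches with relatives, so their counts are uncertain.

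Of 6 inhibitory receptors, none passed 2 times in either direction and the median log2 ratio was -0.13 (0.16 without mixed members). Klrc1, which encodes the inhibitory NKG2A, was nearest, at 2.04 UMIs per 10000 in normal and 3.43 in fibrotic liver, a ratio of 1.68 (1.30-2.18), and 1.94 (1.49-2.55) without mixed members. The share of members with a Klrc1 UMI was 37.1% and 58.3%. Its partner Klrd1 (CD94), at 5.89 and 5.44, had a ratio of 0.92 (0.78-1.10). Klrb1b, an inhibitory receptor of the NK1.1 family outside that list, was 2.81 times higher (2.20-3.61) in fibrotic liver without mixed members, at 2.61 and 7.31 UMIs per 10000.

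Below the receptors, the adaptor Tyrobp (DAP12; chr7:30413760-30417585, mm10) was lower in fibrotic NK cells. It stood at 13.7 UMIs per 10000 in normal and 6.49 in fibrotic liver, a ratio of 0.47 (0.41-0.54), and at 0.43 (0.37-0.51) without mixed members. Without mixed members its median over cells was 13.4 in normal and 6.27 in fibrotic liver, with ranges of 0 to 40.6 and 0 to 22.1 that overlap. In CD8 T cells and B cells of the same livers Tyrobp was higher in fibrosis, with ratios of 1.24 and 1.93 over all such cells; with mixed cells left out the ratios were 0.87 in CD8 T cells and 2.15 in B cells. Fcer1g, an adaptor of NKp46 and Fc receptors, stood at 12.6 and 8.52, a ratio of 0.68 (0.60-0.77), and Hcst at 3.83 and 2.5, a ratio of 0.65 (0.51-0.83). Of 12 adaptors and signalling genes compared, Tyrobp was 2 times lower, a count near the background of 8.47% of all genes, and none was 2 times higher, against 14.2%; without mixed members Inpp5d, the phosphatase SHIP1 that dampens receptor signals, was 2.23 times higher (1.54-3.29), at 1.23 and 2.76 UMIs per 10000.

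**Figure D2:**
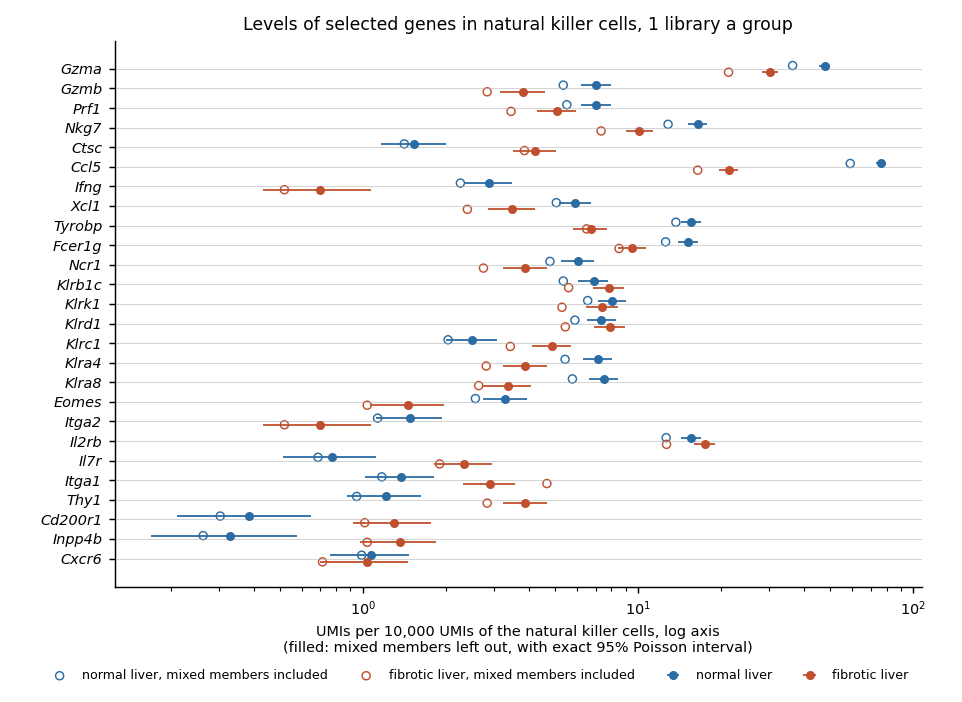
Levels of selected genes in NK cells (UMIs per 10000 UMIs, log axis) in normal (blue) and fibrotic (red) liver, 1 library each. Filled points with 95% Poisson intervals leave mixed members out and open points include them; Ccl5 is lower in fibrotic liver (76.1 and 21.4), and the fibrotic level of Itga1 is higher with mixed members (4.66) than without them (2.89).

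Of 10 cytotoxic granule genes compared, none was 2 times lower in fibrotic NK cells, 1 (Ctsc) was 2 times higher and 4 had a ratio above 1, against 8.47%, 14.2% and 63.5% of all genes. The list's median log2 ratio was -0.44, and -0.31 without mixed members, against 0.23 and 0.24 over all genes compared. Gzma had a ratio of 0.59 (0.54-0.63), and 0.63 (0.58-0.69) without mixed members. In CD8 T cells it went from 9.74 to 1.53 UMIs per 10000, a ratio of 0.16, and Gzmb and Nkg7 had CD8 T cell ratios of 0.20 and 0.48. Over cells that were not mixed its median was 36.2 UMIs per 10000 in normal (0 to 156) and 21.1 in fibrotic liver (0 to 162), so the ranges coincide while 20 of 112 normal and 37 of 96 fibrotic cells had none. With the mitochondrial limit at 5%, which left 31 normal and 48 fibrotic members, the Gzma ratio was 1.54, so its direction rests on that limit. Gzmb stood at 5.34 and 2.83 UMIs per 10000, a ratio of 0.53 (0.43-0.65), and Prf1, the perforin that opens the target membrane, at 5.51 and 3.45, a ratio of 0.63 (0.51-0.77). Nkg7, a granule membrane protein that the rule required, stood at 12.8 and 7.33. In the opposite direction Ctsc, the protease that activates granzymes, stood at 1.41 and 3.86, a ratio of 2.74 (2.06-3.66). Ctsc had ratios of 2.53 in CD8 T cells and 2.38 in B cells of the same livers.

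The promoters of the 3 killing genes, Gzma, Gzmb and Prf1, are shown because their levels are set below against Eomes, a T-box factor. Each is 250 bases before to 50 after the transcription start in RefSeq (build GRCm38.p6), on the gene's strand. Capitals mark matches to the core of the T-box motif AGGTGT, of the family of Eomes and T-bet, and to TGNGGT. The latter, called RUNX here, allows any base at N and is looser than the RUNX core, TGTGGT or TGCGGT. Both were searched on both strands without overlap between them. The T-box letters occur in 13.7% and the RUNX letters in 45.8% of 32851 promoters of this length. Gzma (chr13:113100932-113101231, minus strand) had 1 T-box match at position -80 from the start and 2 RUNX matches, Gzmb (chr14:56262285-56262584, minus strand) 0 and 3, and Prf1 (chr10:61297586-61297885, plus strand) 1 at -24 and 2.
Gzma: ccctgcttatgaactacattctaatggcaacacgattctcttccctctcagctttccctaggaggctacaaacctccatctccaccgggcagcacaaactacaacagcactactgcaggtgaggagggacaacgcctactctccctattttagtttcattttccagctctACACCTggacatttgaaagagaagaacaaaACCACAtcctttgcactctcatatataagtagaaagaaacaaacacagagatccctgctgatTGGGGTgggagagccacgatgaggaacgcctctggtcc
Gzmb: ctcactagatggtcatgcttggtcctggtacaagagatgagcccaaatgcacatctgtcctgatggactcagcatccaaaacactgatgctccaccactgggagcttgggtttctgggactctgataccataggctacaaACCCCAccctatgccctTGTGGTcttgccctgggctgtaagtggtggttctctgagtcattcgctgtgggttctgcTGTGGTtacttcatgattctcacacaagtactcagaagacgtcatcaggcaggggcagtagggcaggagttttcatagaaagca
Prf1: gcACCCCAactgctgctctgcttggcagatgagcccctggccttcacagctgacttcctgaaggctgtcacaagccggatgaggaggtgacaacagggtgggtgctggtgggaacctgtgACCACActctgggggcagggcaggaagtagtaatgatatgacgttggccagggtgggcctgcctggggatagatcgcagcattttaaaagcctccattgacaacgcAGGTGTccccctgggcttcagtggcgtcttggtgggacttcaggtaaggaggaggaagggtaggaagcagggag
The RUNX matches at 13 in Gzma, -110 in Gzmb and -248 in Prf1 read TGGGGT or its reverse complement ACCCCA and fit the loose form only. The matches describe these letters only. No binding was measured.

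Among secreted effectors the chemokine Ccl5 (chr11:83525778-83530518, mm10) was lower in fibrotic NK cells. It stood at 59.0 UMIs per 10000 in normal and 16.5 in fibrotic NK cells, a ratio of 0.28 (0.26-0.30), and 76.1 and 21.4 without mixed members. Its median over cells that were not mixed was 62.7 in normal (0 to 248) and 15.2 in fibrotic liver (0 to 93.4). Nearly as many members held a Ccl5 UMI, 89.5% and 87.4%, against 13.5% and 4.09% of B cells; the shares expected after thinning each cell to 1000 UMIs were 83.0% and 67.1%, against 5.11% and 1.42% of B cells. CD8 T cells had Ccl5 at 49.9 and 14.1, the same ratio of 0.28.

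Ifng, the interferon gamma gene, stood at 2.26 UMIs per 10000 in normal and 0.518 in fibrotic NK cells, a ratio of 0.23 (0.14-0.36), and 0.24 (0.14-0.39) without mixed members; 39.5% and 15.5% of members held a UMI of it. With the 5% mitochondrial limit the Ifng ratio was 0.10. In CD8 T cells the Ifng ratio was 0.14. Xcl1, which attracts cross-presenting dendritic cells, stood at 5.04 and 2.39, a ratio of 0.48 (0.38-0.60), and 0.59 without mixed members. The inflammatory chemokine Ccl4 stood at 11.6 and 7.29, and Ccl3 at 4.36 and 4.03 with a ratio of 0.93 (0.76-1.13). Of the 9 death ligands and cytokines compared, 3 (Ifng, Xcl1 and Ccl5) were 2 times lower and none 2 times higher, against 8.47% and 14.2% of all genes; without mixed members there were 2, Ifng and Ccl5. Ifng entered the comparison only through its level in normal liver and so had to be lower. The death ligands Fasl and Tnfsf10 had ratios of 0.97 (0.67-1.40) and 1.57 (0.98-2.54).

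Of 10 cytokine receptors compared, 1 (Il7r) was 2 times higher and none 2 times lower, against 14.2% and 8.47% of all genes, with a median log2 ratio of 0.41. Il7r entered the comparison only through fibrotic liver and so had to be higher. A ratio above 1 was found for 9 of the 10, against 63.5% of all genes compared, and for 7 of the 10 without mixed members, near the 64.3% of all genes. Il2rb, the chain through which IL-15 sustains NK cells, stood at 12.6 and 12.7 UMIs per 10000, a ratio of 1.0 (0.90-1.12), against 1.17 for the median gene. Il7r, the IL-7 receptor chain carried by ILC1s and few conventional NK cells, stood at 0.686 and 1.90, a ratio of 2.77 (1.84-4.24), and 3.03 (1.93-4.88) without mixed members. With the 5% mitochondrial limit the Il7r ratio was 1.15. Il10ra, a receptor chain for the regulatory cytokine IL-10, was 2.56 times higher (1.58-4.26) without mixed members, and 2.26 times higher in CD8 T cells. Il10ra also entered only through fibrotic liver and so had to be higher in NK cells.

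Of 15 homing and adhesion genes 2 (Cxcr4 and Itga1) were 2 times higher and 1 (Itga2) 2 times lower, shares near the 14.2% and 8.47% of all genes, with a median log2 ratio of 0.08. Cxcr4 entered only through fibrotic and Itga2 only through normal liver, so these had to differ. Cxcr4, a chemokine receptor of bone marrow retention, stood at 0.807 and 1.92 UMIs per 10000, a ratio of 2.38 (1.62-3.55), and its ratio in CD8 T cells was 2.70. Itga1 stood at 1.17 and 4.66, a ratio of 3.98 (2.97-5.42), but at 1.37 and 2.89, a ratio of 2.11 (1.47-3.05), without mixed members. Stellate cells also express Itga1, and in B cells, where it is not expected, it went from 0.474 to 2.24. Whether RNA of other cells had a part in the Itga1 levels of NK cells was not tested. Itga2 stood at 1.13 and 0.518, a ratio of 0.46 (0.27-0.75). With the 5% mitochondrial limit the ratios of Itga1, Itga2 and Klra8 turned, to 0.91, 1.29 and 1.33.

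Of 12 transcription factors compared, Eomes was 2 times lower and none 2 times higher, against 8.47% and 14.2% of all genes, with a median log2 ratio of -0.06. A count of 1 is near that background. Eomes stood at 2.56 UMIs per 10000 in normal and 1.04 in fibrotic NK cells, a ratio of 0.40 (0.28-0.57), and 0.44 (0.31-0.63) without mixed members. The other T-box factor of NK cells, Tbx21 (T-bet), stood at 1.53 and 1.01, a ratio of 0.66 (0.45-0.96). With the 5% mitochondrial limit the Eomes ratio was 0.74. In CD8 T cells Eomes had a ratio of 1.30. Irf8, used by NK cells in maturation, stood at 6.53 and 7.81, and at 5.38 and 9.54 without mixed members, a ratio of 1.77 (1.47-2.14). Ikzf2 (Helios) passed 2 times only without mixed members, with a ratio of 2.08 (1.18-3.74) at 0.576 and 1.20 UMIs per 10000. Ikzf2 entered the comparison only through fibrotic liver and so had to be higher.

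Genes that separate ILC1s from conventional NK cells were compared as 2 lists. Of 11 ILC1 genes compared 6 were 2 times higher in fibrotic liver and none 2 times lower, against 14.2% and 8.47% of all genes, with a median log2 ratio of 1.03. Of these 6, 4 (Cd200r1, Il7r, Inpp4b and Thy1) entered the comparison only through their level in fibrotic liver, so they had to differ and the count is no support for a difference of the list. Of 13 conventional NK genes 3 (Eomes, Itga2 and Klra8) were 2 times lower and none 2 times higher, with a median of -0.54, and Itga2 entered only through its level in normal liver. Without mixed members the counts were again 6 of 11 and 3 of 13, with medians of 1.05 and -0.38, but Tmem176a left the higher genes and Ikzf2 joined them. Ikzf2, like the 4 genes named above, entered only through fibrotic liver, so the repeated count is no support either. Thy1, an adhesion glycoprotein of ILCs and T cells, stood at 0.948 and 2.83 UMIs per 10000, a ratio of 2.98 (2.12-4.25). Cd200r1, an inhibitory receptor, stood at 0.303 and 1.01, a ratio of 3.35 (1.84-6.45), and Inpp4b, a lipid phosphatase, at 0.262 and 1.04, a ratio of 3.95 (2.11-7.95). The ILC1 chemokine receptor Cxcr6 itself was not higher, at 0.988 and 0.712, a ratio of 0.72 (0.45-1.14). In CD8 T cells and B cells without mixed cells the ratios of Cd200r1 were 2.38 and 3.56, of Il7r 0.99 and 3.51, of Thy1 1.30 and 1.57 and of Inpp4b 0.87 and 1.53. Of the conventional NK genes, Itga2 had 0.28 and 1.22 and Klra8 0.41 and 2.43 there, so both were also lower in fibrotic CD8 T cells. Eomes had a ratio of 1.55 in those CD8 T cells. With the 5% mitochondrial limit 6 of the 9 genes past 2 times in these lists were no longer past it, with ratios of 0.91 for Itga1, 0.95 for Tmem176a, 1.15 for Il7r, 1.29 for Itga2, 1.33 for Klra8 and 0.74 for Eomes. Without mixed members 5 of the 13 conventional NK genes had a ratio above 1, against 64.3% of all genes compared.

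**Figure D3:**
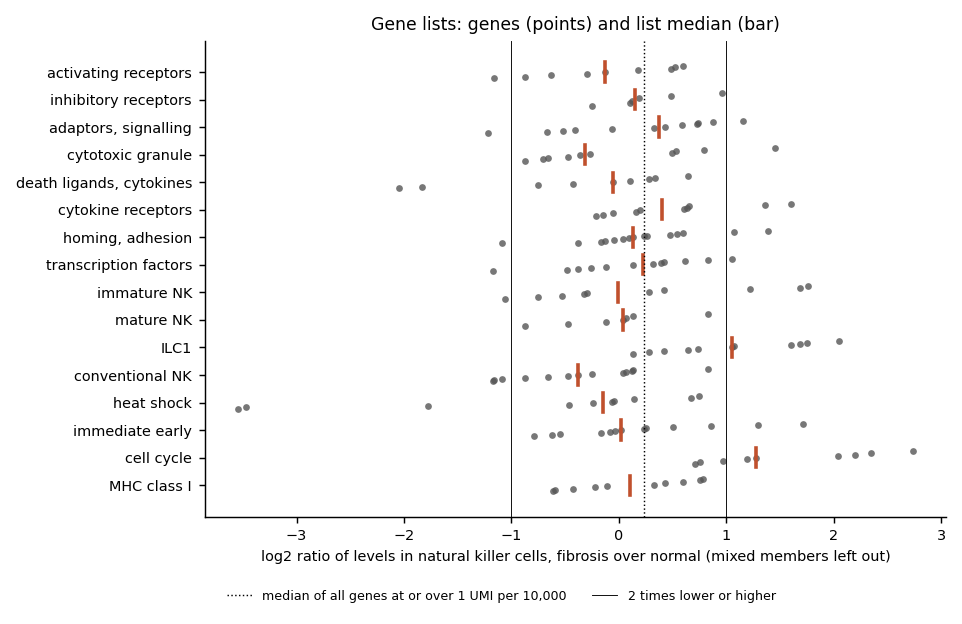
Log2 ratio of levels, fibrotic over normal liver, for each compared gene (grey points) of 16 gene lists in NK cells without mixed members, with the list median as a red bar. The dotted line is the median of all genes compared (0.24) and the solid lines mark 2 times lower and higher; the ILC1 and cell cycle medians lie above 1, and the conventional NK and granule medians (-0.38 and -0.31) lie below the dotted line.

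Of 10 immature NK genes, 3 (Emb, Thy1 and Kit) were 2 times higher and 2 (Cd27 and Xcl1) 2 times lower, against 14.2% and 8.47% of all genes; without mixed members Cd27 alone was 2 times lower. Of 7 mature NK genes none passed 2 times. Cd27, which marks less mature NK cells, stood at 1.33 and 0.626 UMIs per 10000, a ratio of 0.47 (0.29-0.74). Kit stood at 0.383 and 1.51, a ratio of 3.94 (2.35-6.93), with a B cell ratio of 2.56. Thy1 and Kit entered the comparison only through fibrotic liver and Cd27 only through normal liver, so these had to differ.

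Of the genes that ranked highest and lowest by ratio, those over all members were led by Col3a1, Igfbp3 and Bmp5 upward and by Tstd1, Agt and Ces1c downward, genes of stromal cells and hepatocytes among them. Without mixed members the 12 highest of 351 eligible genes were Inpp4b, Top2a, Ahr, Sft2d2, Cd200r1, Thy1, Il7r, Flt3l, Cpne7, Chn2, Klrb1b and Nrgn. All but Thy1 and Klrb1b of these were eligible only through their level in fibrotic liver, and so had to be higher. Ahr, a ligand-activated factor that resident innate lymphocytes use, had a ratio of 3.63 (1.85-7.67), with levels of 0.329 and 1.20 UMIs per 10000. The 12 lowest were Hspa1b, Hsd11b1, Ifng, Ccl5, Nt5c, Trip11, Tyrobp, Dnajb4, Eomes, Klra8, Zfpm1 and Itga2, and 8 of them, all but Ccl5, Tyrobp, Eomes and Klra8, were eligible only through normal liver. Hsd11b1, a glucocorticoid-activating enzyme abundant in hepatocytes, had a ratio of 0.19 (0.095-0.33) without mixed members, 0.57 over all members, and 0.24 in B cells that were not mixed.

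Stress and early response genes were also read in CD8 T cells and B cells. The inducible heat shock gene Hspa1b stood at 6.80 UMIs per 10000 in normal and 0.798 in fibrotic NK cells, a ratio of 0.12 (0.081-0.17), with 0.067 in CD8 T cells and 0.31 in B cells. Of 10 heat shock genes 3 (Hspa1a, Hspa1b and Dnajb1) were 2 times lower, against 8.47% of all genes, and all 3 entered the comparison only through their level in normal liver. Dusp1, a phosphatase induced early after stimulation, stood at 4.70 and 11.3, a ratio of 2.40 (2.05-2.81), with 2.38 in CD8 T cells and 3.16 in B cells; it was the 1 gene of 13 immediate early genes past 2 times, a share below the 14.2% of all genes, joined by Atf3 without mixed members. B2m, the light chain of MHC class I, stood at 33.5 and 57.8, a ratio of 1.73 (1.62-1.84) that was 1.51 in CD8 T cells and 1.68 in B cells, while none of 10 MHC class I genes passed 2 times. Of 5 interferon response genes compared, Ifi27l2a had a ratio of 4.32 (3.14-6.06) over all members but 1.5 (0.75-3.02) without the mixed ones.

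Of 9 cell cycle genes compared, 8 were 2 times higher in fibrotic NK cells, against 14.2% of all genes, with a median log2 ratio of 2.05, and 6 of 9 with 1.28 without mixed members. Of the 8, 6 entered the comparison only through their level in fibrotic liver, so they had to differ and the count is a description. With the 5% mitochondrial limit the ratios of Mki67 and Top2a were 1.31 and 2.36. Top2a, a topoisomerase of dividing cells, stood at 0.464 and 3.97 UMIs per 10000, and at 0.549 and 2.26 without mixed members, a ratio of 4.12 (2.47-7.16). Mki67, a proliferation marker, stood at 0.484 and 2.5, and at 0.219 and 1.46 without mixed members. Few cells carried these UMIs. Mixed members held 40.4% of the Mki67 and Top2a UMIs in normal and 62.7% in fibrotic liver, 25 and 26 members had any, and 1 and 5 members had at least 5. In CD8 T cells the ratios of Mki67 and Top2a were 1.02 and 1.07.

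Eomes (chr9:118478212-118486132) and Cxcr6 (chr9:123806475-123811760) were read in separate NK cells with 1 exception. In normal liver 58 of 124 members (46.8%, 37.8-55.9) held Eomes and no Cxcr6, 25 (20.2%, 13.5-28.3) held Cxcr6 and no Eomes, 0 held both, which allows up to 2.93% by the exact interval, and 41 held neither. In fibrotic liver 28 of 103 (27.2%, 18.9-36.8) held Eomes alone, 19 (18.4%, 11.5-27.3) Cxcr6 alone, 1 both and 55 neither. Of B cells, 0.193% and 0% had an Eomes UMI and 1.93% and 0.943% a Cxcr6 UMI. After thinning each cell to 1000 UMIs, the shares expected over all draws were 23% of normal and 13.3% of fibrotic members for Eomes alone and 9.52% and 6.78% for Cxcr6 alone. Without mixed members they were 24.7% and 14.2%, and 9.64% and 7.23%. Cells with neither are cells in which these few transcripts were not read, and cannot be assigned. These intervals cover the counting of cells within 1 library a condition, and whether the shares differ between conditions was not tested.

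Other genes were compared across this division. Levels in the divided cells are given with mixed members left out, and with them included where this moves them, since 1 deep mixed cell can hold much of the UMIs of so few cells. Leaving them out gives 53 Eomes and 22 Cxcr6 cells in normal and 26 and 18 in fibrotic liver. Leaving Eomes and Cxcr6 aside, 10 of 11 ILC1 genes were at least 2 times higher in Cxcr6 cells than in Eomes cells in normal liver and 9 of 11 in fibrotic liver, against 11% of 2403 and 14.8% of 2984 genes compared. Of the conventional NK genes 12 of 15 and 13 of 13 were at least 2 times lower in Cxcr6 cells, against 8.07% and 14% of genes. With mixed members included the ILC1 counts were 8 of 9 and 6 of 11 and the conventional NK counts 11 of 14 and 11 of 11. Without mixed members, 10 of the 10 ILC1 genes in normal liver and 6 of the 9 in fibrotic liver, and 9 of the 12 and 11 of the 13 conventional NK genes, entered only through the cells where they were high and so had to differ. The counts are therefore a description and no support, and the levels of single genes follow. Itga1 stood at 0.274 UMIs per 10000 in normal Eomes cells and 3.59 in normal Cxcr6 cells, and at 1.22 and 3.81 in fibrotic liver, or 4.67 and 6.64 with mixed members. An Itga1 UMI was found in 5.66% of Eomes and 63.6% of Cxcr6 cells in normal liver, and in 30.8% and 61.1% in fibrotic liver. The Ly49 genes Klra4 and Klra8 marked the other side, with a UMI of either in 84.9% of normal Eomes cells and 9.09% of normal Cxcr6 cells, and in 69.2% and 5.56% in fibrotic liver. Klra4 and Klra8 could also admit a cell to the NK cells.

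Among the genes most separated in both libraries were, on the Cxcr6 side, Tcrg-C4, Cd200r1, S100a4, AC163354.1, Cd160, Cd226, Socs1 and Cish, and on the Eomes side Klra4, Klra8, Klra7, Prdm1, Zeb2, Gzma and Lpin1. All of these but Gzma were under 1 UMI per 10000 in the other kind of cell in both livers. They entered only through the cells where they were high and so had to differ, and the ranking is a description. Cd160 and Cd226, activating receptors for host ligands, stood at 5.81 and 3.59 in normal Cxcr6 cells against 0.329 and 0.219 in normal Eomes cells. Zeb2 and Prdm1, factors of terminal NK maturation, were on the Eomes side in both livers, with Zeb2 at 6.47 in Eomes and 0.829 in Cxcr6 cells of normal liver and 8.38 and 0.761 in fibrotic liver. Xcl1 was higher in Cxcr6 cells in both livers, at 12.3 against 3.4 UMIs per 10000 in normal and 7.87 against 0.811 in fibrotic liver. Cd7 behaved alike, at 12.2 against 2.47 and 7.87 against 0.946. T cell receptor RNA also differed, given here over all members. Trbc1 stood at 6.67 in Cxcr6 against 3.57 in Eomes cells of normal liver and 7.12 against 1.91 in fibrotic liver. Trbc2 stood at 3.65 against 0.969 and 1.20 against 0.461. Trdc was lower in Cxcr6 cells, at 0.208 against 0.793 and 0.160 against 0.526. Whether the Cxcr6 cells include T cells whose CD3 was not read was not tested.

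**Figure D4:**
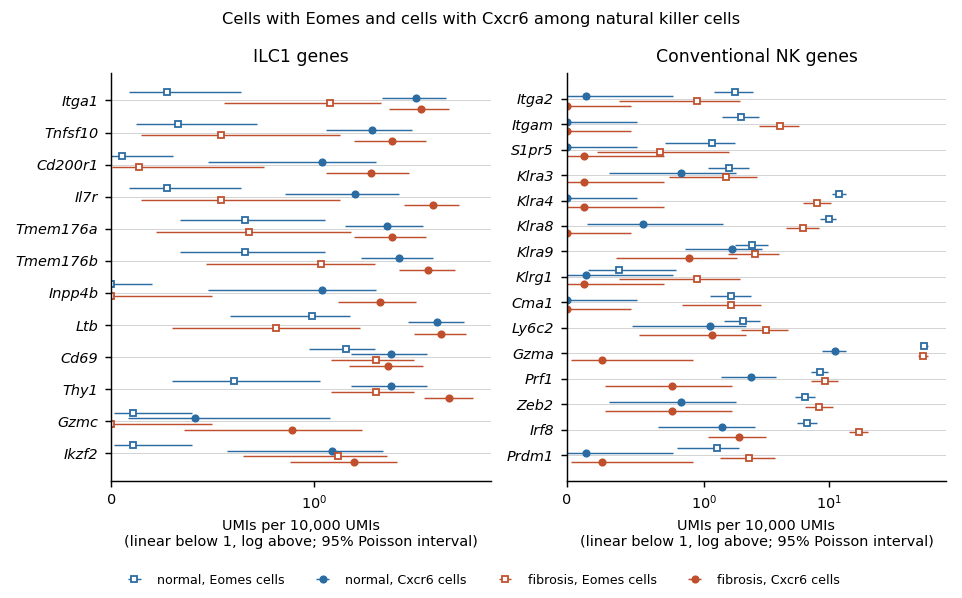
Levels (UMIs per 10000 UMIs, linear below 1 and log above, bars 95% Poisson intervals) of ILC1 genes and conventional NK genes in NK cells with Eomes (open squares) and with Cxcr6 (filled circles), normal in blue and fibrotic in red, mixed members left out. ILC1 genes such as Itga1 lie to the right in Cxcr6 cells of both livers (3.59 and 3.81), and Klra4 in Eomes cells (12.1 and 8.11).

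The granule genes by kind of cell depended on the mixed members. With mixed members left out, Gzma in Eomes cells stood at 58.9 UMIs per 10000 (55.5-62.6) in normal and 57.7 (52.4-63.5) in fibrotic liver, a ratio of 0.98 (0.87-1.10). With all members it stood at 50.0 (47.2-53.0) and 30.9 (28.2-33.9), a ratio of 0.62 (0.55-0.69). A Gzma UMI was read in 52 of 53 normal and 25 of 26 fibrotic Eomes cells that were not mixed, whose medians were 47.6 and 59.6 UMIs per 10000. So whether Gzma was lower in fibrotic Eomes cells rests on whether the mixed members are counted. In Cxcr6 cells Gzma was lower in fibrotic liver either way, at 11.2 (8.89-13.9) and 0.254 (0.031-0.92) without mixed members, with a UMI in 10 of 22 and 2 of 18 cells, and at 8.86 and 0.16 with them. Cells with neither gene had 52.9 and 31.9, a ratio of 0.60 (0.53-0.68), and a ratio of 0.80 (0.71-0.91) with mixed members. Prf1 in Eomes cells stood at 8.44 and 9.33, a ratio of 1.10 (0.82-1.48), without mixed members and at 7.31 and 5.0, a ratio of 0.68 (0.52-0.90), with them. In Cxcr6 cells Prf1 stood at 2.35 and 0.761 without mixed members.

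Gzmb had another pattern. In normal liver it was higher in Cxcr6 cells, at 12.3 UMIs per 10000 (9.88-15.1), than in Eomes cells, at 5.87 (4.81-7.09). In fibrotic liver the order was the opposite, 2.92 (1.85-4.38) against 6.08 (4.44-8.14), and 1 cell held 73.9% of the UMIs of the Cxcr6 cells. A Gzmb UMI was found in 16 of 22 normal and 6 of 18 fibrotic Cxcr6 cells. Ccl4 did the same, at 28.3 in normal and 6.85 in fibrotic Cxcr6 cells, against 11.7 and 13.2 in Eomes cells without mixed members; with them the Eomes cells had 10.3 and 7.11. With mixed members Gzmb kept this order, at 9.80 against 4.84 in normal and 2.0 against 3.88 in fibrotic liver. Ifng in Cxcr6 cells stood at 5.11 (3.60-7.05) and 0.508 (0.14-1.30), a ratio of 0.099 (0.026-0.28), and in Eomes cells at 2.80 and 1.89, a ratio of 0.68 (0.35-1.24), which was 0.39 (0.20-0.69) with mixed members. Whether the ratios differ between the kinds of cell could not be tested with 1 library a condition.

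Without mixed members Ccl5 and Tyrobp were lower in fibrotic liver in all 3 kinds of cell. Ccl5 stood at 77.7 and 31.8 UMIs per 10000 in Eomes cells, 61.5 and 10.3 in Cxcr6 cells and 83.1 and 21.7 in cells with neither, ratios of 0.41 (0.35-0.47), 0.17 (0.13-0.21) and 0.26 (0.23-0.30). With mixed members the Ccl5 ratios were 0.27, 0.19 and 0.36. Tyrobp stood at 17.7 and 8.52, 10.9 and 4.31, and 15.1 and 6.98, ratios of 0.48, 0.40 and 0.46 whose intervals overlap, and of 0.37, 0.26 and 0.88 (0.71-1.10) with mixed members. Nkg7 had ratios of 0.64 (0.50-0.81) in Eomes cells, 0.79 (0.57-1.11) in Cxcr6 cells and 0.61 (0.49-0.77) in cells with neither, and of 0.40, 0.72 and 0.82 with mixed members.

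Irf8 also depended on the mixed members, and Emb less so. Without mixed members Irf8 in Eomes cells stood at 6.69 UMIs per 10000 (5.55-7.98) in normal and 17.6 (14.7-20.9) in fibrotic liver, a ratio of 2.63 (2.04-3.39), with medians over cells of 5.08 and 16.8. With all members it stood at 9.16 and 10.5, a ratio of 1.14 (0.92-1.41). In Cxcr6 cells the Irf8 ratio turned, from 1.38 (0.58-3.43) without mixed members to 0.29 (0.16-0.50) with them. Emb, which encodes the adhesion glycoprotein embigin, stood at 3.04 (1.91-4.6) and 14.8 (12.3-17.8) in Cxcr6 cells, a ratio of 4.88 (3.08-8.09), and 3.12 (2.07-4.86) with mixed members. It was read in 5 of 22 normal and 15 of 18 fibrotic Cxcr6 cells that were not mixed. In Eomes cells Emb stood at 3.4 and 1.89, a ratio of 0.56 (0.29-1.01), and 0.35 (0.19-0.61) with mixed members. Klrc1 was higher in Cxcr6 than in Eomes cells of both livers, at 5.53 against 1.37 in normal and 7.11 against 2.43 in fibrotic liver.

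**Figure D5:**
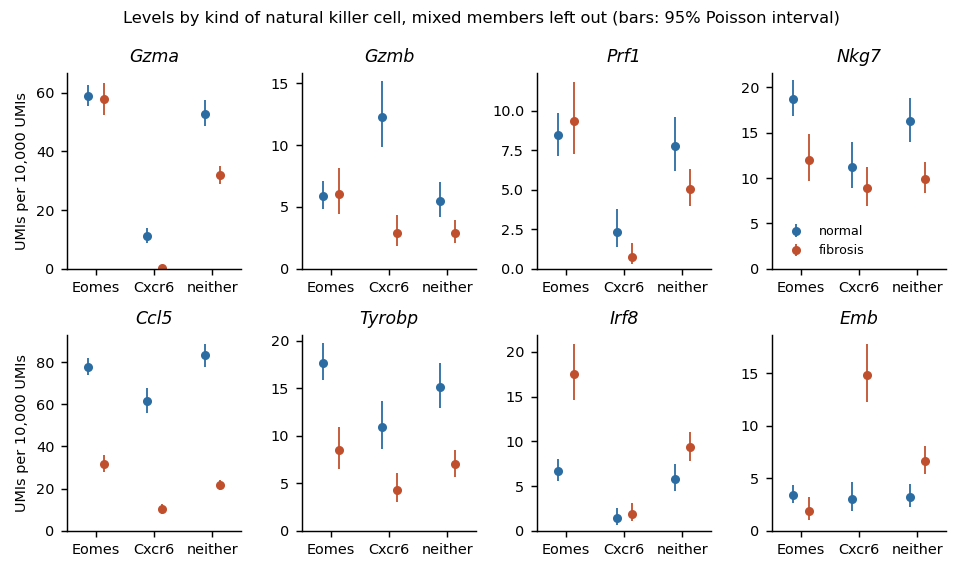
Levels of 8 genes (UMIs per 10000 UMIs, linear axes, bars 95% Poisson intervals) in NK cells with Eomes, with Cxcr6 or with neither, normal in blue and fibrotic in red, mixed members left out. Gzma and Prf1 coincide between livers in Eomes cells (Gzma 58.9 and 57.7), Ccl5 and Tyrobp are lower in fibrotic liver in all 3 kinds, Irf8 is higher in fibrotic Eomes cells (17.6) and Emb in fibrotic Cxcr6 cells (14.8).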

How the data were processed

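NPCs of 1 normal and 1 fibrotic liver were profiled with 10x Chromium version 3 chemistry. The authors deposited, per library, a table of UMI counts per gene and cell, made with Cell Ranger 3.0.1 against mm10 (per the submitters' processing notes); genes without a UMI were not listed and counts were not normalised. From these counts NK cells were chosen by the UMI limits given above. T cells (at least 2 CD3 UMIs), CD8 T cells (also at least 1 of Cd8a and Cd8b1) and B cells (at least 2 UMIs of Cd79a and a further B cell marker) served for comparison. UMIs were summed over the cells of a class and given per 10000 UMIs. Genes reaching 1 UMI per 10000 in the NK cells of either liver were compared as fibrotic over normal ratios and called past 2 times. The design has 1 library a condition, so no test was made. Shares were also computed for cells thinned to 1000 UMIs, as the expectation over all draws. The members and gene lists were chosen with earlier results of these data known, and the cholangiocyte list and the mixed member limit after values were seen. Genes were named from these lists and by rank: 12 ratios in each direction, 20 genes highest over other cells and 8 in each direction between Cxcr6 and Eomes cells. Python 3.11.15, scipy 1.17.1 and scanpy 1.11.5 (Scrublet) were used, and the ratio step was tested on simulated data. Gene positions matched GRCm38, the build of mm10. Some items are not reported here.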

Additional observations from a re-analysis of the deposited data

How the results depend on the processing

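Of the alternatives, the mitochondrial limit moved the most values of named genes outside their counting interval (99), followed by the mean over cells (42), leaving out mixed members (36) and leaving out the 3 top cells of each gene (30). With the mitochondrial limit at 5% instead of 10%, which left 31 normal and 48 fibrotic members, ratios of 45 of 168 named genes came to lie on the other side of 1, Gzma (1.54) among them; of genes past 2 times, these were Klra8 (1.33), Itga1 (0.91), Itga2 (1.29), Tmem176a (0.95), Tubb5 (0.79) and Spp1 (3.20), NK cells were 19.7% of normal and 43.2% of fibrotic NK, T and B cells and 2.82% of fibrotic kept cells, and Cxcr6 without Eomes was found in 29.0% of normal members. Spp1 also turned without mixed members (2.24) and without the 3 cells of each library that hold most of it (1.93). With no Nkg7 required, NK cells were 2.32% of kept and 19.0% of NK, T and B cells in fibrotic liver, and with an endothelial limit of 10 they were 1.43% of normal and 1.08% of fibrotic kept cells. In 1 draw of 1000 UMIs a cell, 9.68% of normal and 8.74% of fibrotic members held Cxcr6 without Eomes, and over all draws, an alternative added after seeing the data, 9.52% and 6.78%. At a filter of 0.5 instead of 1 UMI per 10000, 776 of 5154 genes were 2 times higher and 444 lower, and at 1.5 times 741 and 377. Median-of-ratios scaling gave 277 genes higher and 285 lower against 370 and 221, and UMIs per cell 468 and 193. Of 2534 values for 169 named genes under the alternatives, 2232 stayed within the counting interval, 294 lay outside it and 8 reversed, counting as reversed only genes past 2 times; the cause was not tested. The setting without mixed members was added after seeing the data. No paired analysis was possible because each condition has 1 library and no test was made. Depth limits low genes: a count of 0 in the 495832 normal UMIs allows up to 0.0605 UMIs per 10000.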
